A study of Mus musculus with 7 samples.

Results

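The 51 genes described here make up the S-phase machinery: the proteins that license and fire replication origins, the helicase, polymerases and clamp that copy DNA, the enzymes that supply deoxynucleotides, cyclin E with its kinase, and a histone chaperone. They were a named list, and a gene counted as a member where the platform annotation gave its symbol as the only symbol of an array row. All 51 symbols were found, among 13562 genes named in this way. The genes were not filtered by their levels, but the list was drawn up with earlier results of these arrays known. Those results included a rise of these genes in a fibroblast culture named below.

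RNA from 7 mouse cultures was hybridised to 1 Affymetrix array each. Utx, encoded by the X-linked gene Kdm6a, is a demethylase of lysine 27 of histone H3, and the design compares Utx -/Y (KO) with Utx +/Y (WT) cells before and after reprogramming is started. V6.5 embryonic stem cells (ESCs) were profiled as Utx KO and as Utx WT. V19-OSKM mouse embryonic fibroblasts (MEFs), in which doxycycline (DOX) induces reprogramming by OSKM, that is Oct4, Sox2, Klf4 and Myc, were profiled as Utx KO with DOX, Utx KO without DOX, Utx WT with DOX and Utx WT without DOX. The last culture held fibroblasts generated from Nanog -/- ESCs and carrying an OSKM lentivirus for 8 days. The length of the DOX treatment, the number of clones or embryos behind a culture and the ages of embryos are not given in the labels, and the labels give ESC medium for every sample, fibroblasts included. Each condition has 1 array, which sets the precision, so the differences below carry neither an error nor a p-value, and comparisons that share an array are not independent.

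Before each S phase the origin recognition complex (ORC), Cdc6 and Cdt1 load the ring-shaped Mcm2 to Mcm7 helicase onto DNA, and geminin blocks reloading once replication has begun. Cyclin E with Cdk2 and the Cdc7 kinase then trigger assembly of the active helicase with Cdc45 and the GINS complex. Many of these genes are transcribed at the G1 to S transition under E2F factors, and ESCs, which have a short G1 phase, carry a large share of cells in S phase.

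Kdm6a read 7.97 in KO and 9.12 in WT ESCs, 7.57 in KO and 8.93 in WT MEFs with DOX, and 6.32 in KO and 8.22 in WT MEFs without DOX, on the log2 scale of the deposited values. Pou5f1, the gene of the induced factor Oct4, went against the DOX labels of the KO MEFs: it read 5.12 in the library labelled KO with DOX and 11.26 in the library labelled KO without DOX, against 12.59 in WT MEFs with DOX and 8.19 without. Both are therefore called by their labels below, and no direction of DOX in KO cells is taken from them. All 13 pluripotency markers lay above the floor in both ESC libraries, where the floor is the 40th percentile of all values on all arrays (7.34). Of 12 measured fibroblast markers, 12 lay above it in every MEF library except WT with DOX (7 of 12), and so did 8 of 12 in the WT ESCs and 1 of 12 in the KO ESCs. The Nanog KO array had a median of 8.55 over all its rows, against 7.68 to 7.84 for the Utx arrays. In these bulk cultures fewer cells in S phase and less RNA of a gene per cell cannot be told apart.

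Promoter sequence was set beside the expression values because E2F-bound promoters carry short, recognisable letter runs. Windows from 250 bases before to 50 bases after the annotated start (RefSeq, GRCm38.p6) were held for 42 of the 51 genes, and Mcm4, Gmnn, Gins1, Gins2, Gins4, Prim2, Pole, Rfc2 and Ccne2 had no entry. The E2F-type letters searched were TTTCCCGC, TTTGGCGC, TTTCGCGC and TTTGCCGC on both strands, and these can overlap one another on opposite strands. They stood in the windows of 17 of 42 members (40.5%), against 4.49% of the 10731 measured genes with a window, 2.6% of all 27025 genes and 2.26% of all 32851 windows. The members' windows were richer in G and C, with a median of 61.3% against 52.7% for all windows. A match is a description of the letters and not of bound protein.

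The stretches below are all those whose E2F-type letters, in capitals, lie with 20 bases on either side before the start and outside the annotated span of the gene. The letters of the other members, those before the start of Orc3 and Pola1 among them, did not meet this. Each is written 5′ to 3′ on the strand of the gene. Mcm6 (chr1:128359725-128359835, minus strand) and Mcm5 (chr8:75109336-75109387, plus strand) encode helicase subunits, Gins3 (chr8:95633498-95633545, plus strand) a subunit of the GINS complex and Cdk2 (chr10:128705164-128705211, minus strand) the kinase partner of cyclin E.
Mcm6: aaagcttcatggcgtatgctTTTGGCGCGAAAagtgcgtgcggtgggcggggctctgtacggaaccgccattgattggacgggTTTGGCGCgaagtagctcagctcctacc
Mcm5: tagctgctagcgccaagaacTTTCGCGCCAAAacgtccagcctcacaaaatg
Gins3: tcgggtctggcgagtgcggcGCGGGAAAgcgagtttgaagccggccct
Cdk2: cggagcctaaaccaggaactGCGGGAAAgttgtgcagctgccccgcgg
The first run of Mcm6 and the run of Mcm5 are each TTTGGCGC and TTTCGCGC overlapping on opposite strands, and Mcm6 has a further TTTGGCGC nearer the start. Gins3 and Cdk2 hold TTTCCCGC on the other strand. The CCAAT letters (CCAAT, both strands) were in 26 of 42 members (61.9%) against 42.2% of measured genes. The letters TTTGAA of the CHR element of late cell cycle genes were in 6 of 42 (14.3%), close to the 14.0% of measured genes.

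Across the 7 arrays the members were highest in ESCs and lowest in WT MEFs. The median member level was 9.92 in KO ESCs and 9.71 in WT ESCs. It was 8.61 in the library labelled KO with DOX and 8.92 in the library labelled KO without DOX, against 8.06 in WT MEFs with DOX and 8.09 in WT MEFs without DOX. The Nanog KO array had 8.75. The array with the highest value was KO ESCs for 33 members, WT ESCs for 10, the library labelled KO without DOX for 4, Nanog KO for 3 and the library labelled KO with DOX for 1. The lowest value fell on WT MEFs with DOX for 21 members and on WT MEFs without DOX for another 21. Among the 4 Utx MEF arrays alone, the library labelled KO without DOX was the highest for 39 members. Both ESC arrays lay above all 4 Utx MEF arrays for 44 of 51, the exceptions being Orc4, Pold2, Pclaf, Rrm1, Tk1, Ccne1 and Ccne2. Of the 51, 34 exceeded the floor on every array and 1 on none (Gmnn, the Cdt1 inhibitor geminin, at 5.30 to 6.72). Pcna, Pclaf and Tk1 had 2 rows each, of which the row with the higher mean is used; near-identical copies of these genes could share its signal.

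**Figure D1:**
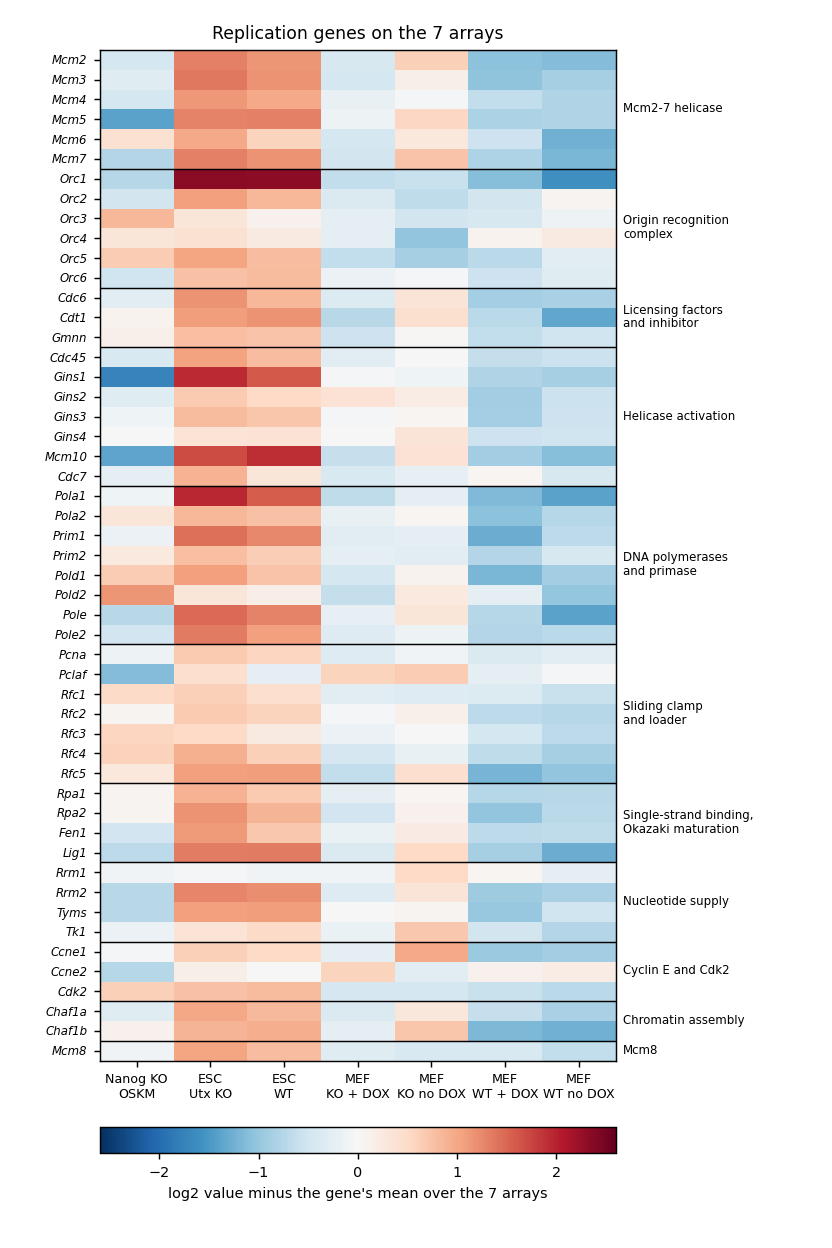
Each row is a gene, grouped by role, each column an array, and colour gives the log2 value minus that gene's mean over the 7 arrays. Most rows are red in the ESC columns and blue in the WT MEF columns, and Orc1, Gins1, Mcm10 and Pola1 have the deepest red in ESCs.

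WT ESCs were set against WT MEFs without DOX to show how far the members differ between cycling stem cells and fibroblasts. The log2 difference was positive for 48 of 51 members, with a median of 1.48 against 0.01 for the 9673 genes above the floor on either array. A difference of at least 1, which is 2-fold, with the higher value above the floor, was reached upwards by 40 of 51 members and downwards by 0. Over all those genes the shares were 14.5% upwards and 19.8% downwards. In 11 of the 40 the MEF value lay under the floor.

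All 6 helicase subunits were at least 2-fold higher in WT ESCs, with a median difference of 2.06. Mcm7 read 11.14 in WT ESCs and 8.78 in WT MEFs without DOX, a difference of 2.35. Mcm4 had the smallest difference of the helicase, 10.52 against 8.73. Orc1, the largest subunit of the ORC, had the widest gap of all members at 3.91, from 9.26 in WT ESCs and 5.35 in WT MEFs without DOX, where it was under the floor. The rest of the ORC differed less: Orc4 read 8.11 against 8.13 and Orc3 9.79 against 9.55. All 8 polymerase and primase genes passed 2-fold, with Pola1, the catalytic subunit of the primer-making polymerase alpha, at 9.67 in WT ESCs and 6.71 in WT MEFs.

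Mcm10, which helps to activate the helicase, differed by 3.04, Pole, the catalytic subunit of the leading-strand polymerase epsilon, by 2.68 and Lig1, the ligase that joins Okazaki fragments, by 2.66. The sliding clamp helper Pclaf (-0.21), the cyclin E2 gene Ccne2 (-0.19) and Orc4 (-0.02) were the only members not higher in WT ESCs. Rrm1, the large subunit of ribonucleotide reductase, was nearly level at 10.92 in WT ESCs and 10.76 in WT MEFs, whereas its small partner Rrm2 read 11.29 against 9.23. The 2 subunits of this enzyme thus differed by 0.15 and 2.06. The 12 measured fibroblast markers were all at least 2-fold lower in WT ESCs, and 13 of the 15 macrophage markers above the floor were too. The part of these other cells in the member differences was not tested.

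MEFs without DOX were compared between genotypes as labelled. A rise of the members in the library labelled KO was already known when the list was drawn up. The values below describe that rise and are not an independent finding of it. In the library labelled KO, 46 of 51 members read higher than in WT, with a median log2 difference of 0.78, while the 9253 genes above the floor on either array had a median of -0.11. At 2-fold, 18 of 51 members were higher and 1 was lower, and the background shares were 5.04% higher and 9.53% lower. The members spread from -1.27 to 1.98, and 10 of 51 (19.6%) lay within 0.5 of no difference, against 58.4% of genes. Of the 19 members past 2-fold, 6 had their lower value under the floor: Chaf1b, Chaf1a, Mcm10, Pola1 and Cdc6 in WT, and Orc4 in the library labelled KO.

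The helicase subunits were all higher in the library labelled KO, by a median of 1.41. Mcm7 read 10.70 in the library labelled KO and 8.78 in WT, a difference of 1.92, and Mcm2 read 10.65 against 8.91, a difference of 1.75. The 2 helicase genes whose promoter letters are printed above, Mcm6 and Mcm5, read 9.63 against 8.12 and 10.52 against 9.21. Mcm3 differed by 1.01, and Mcm4, at 0.75, was the subunit that did not reach 2-fold.

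The ORC ran the other way, with a median of -0.46. Orc4 read 6.86 in the library labelled KO and 8.13 in WT, a difference of -1.27 and the 1 member past 2-fold downwards. Orc2 read 8.39 against 9.12, Orc5 7.53 against 8.09 and Orc3 9.21 against 9.55. Thus 4 of the 6 ORC genes had negative differences, while Orc6 (0.25) and Orc1 (1.01, with both values under the floor) had positive ones. Apart from these 4, Ccne2 was the only member below 0, at -0.47.

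Of the licensing factors, Cdt1 read 9.45 in the library labelled KO and 7.69 in WT, and Cdc6 read 7.42 against 6.24. Their inhibitor Gmnn, under the floor in both, differed by 0.55. Among the genes that activate the helicase, all 7 differences were positive, from 0.19 for the kinase gene Cdc7 to 1.48 for Mcm10 (8.60 against 7.11). The 4 GINS genes lay close together at 0.59 to 0.86, and Cdc45 differed by 0.57.

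All 8 polymerase and primase genes were higher, by a median of 0.90. Pole read 9.17 in the library labelled KO and 7.45 in WT, Pold2, an accessory subunit of the lagging-strand polymerase delta, 10.48 against 9.22, and Pola1 7.86 against 6.71. Pold1, the catalytic subunit of polymerase delta, lay at the threshold (8.21 against 7.21, not counted), and the primase subunits Prim1 and Prim2 differed by 0.44 and 0.14. Within polymerase alpha and its primase the differences thus ran from 1.15 for Pola1 down to 0.14.

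The clamp itself, Pcna, was nearly level at 11.22 in the library labelled KO and 11.01 in WT. Its loader varied: Rfc5 read 10.77 against 9.30, and the other 4 subunits differed by 0.24 (Rfc1) to 0.87 (Rfc2). Lig1 read 9.42 against 7.61, a difference of 1.81. The single-strand binding genes Rpa1 and Rpa2 differed by 0.78 and 0.82, and the flap nuclease gene Fen1 by 0.89.

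All 4 nucleotide supply genes were higher in the library labelled KO. Tk1, which salvages thymidine, read 9.33 against 7.86, Rrm2 10.42 against 9.23, Rrm1 11.53 against 10.76 and Tyms, the thymidylate synthase gene, 9.35 against 8.74. Ccne1 (cyclin E1) read 10.99 in the library labelled KO and 9.09 in WT, a difference of 1.89, whereas Ccne2 (cyclin E2) read 7.10 against 7.56 and Cdk2 8.67 against 8.42. The 2 cyclin E genes therefore had opposite signs. Chaf1b and Chaf1a, subunits of the CAF-1 chaperone that puts histones on new DNA, read 9.24 against 7.26 and 8.22 against 7.09. The 1.98 of Chaf1b was the largest difference among the rows used and lay at percentile 99.0 of all genes above the floor. The WT values of Chaf1b and Chaf1a were under the floor. The second row of Tk1, with a lower mean, differed by 2.16 (9.70 against 7.54). Mcm8, a relative of the helicase subunits with a known part in recombination, differed by 0.25 and was under the floor on both arrays.

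The library labelled KO exceeded WT ESCs for 5 members: Ccne1, Rrm1, Pclaf, Tk1 and Pold2. For the other members it lay between the WT MEFs and the WT ESCs or below both.

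**Figure D2:**
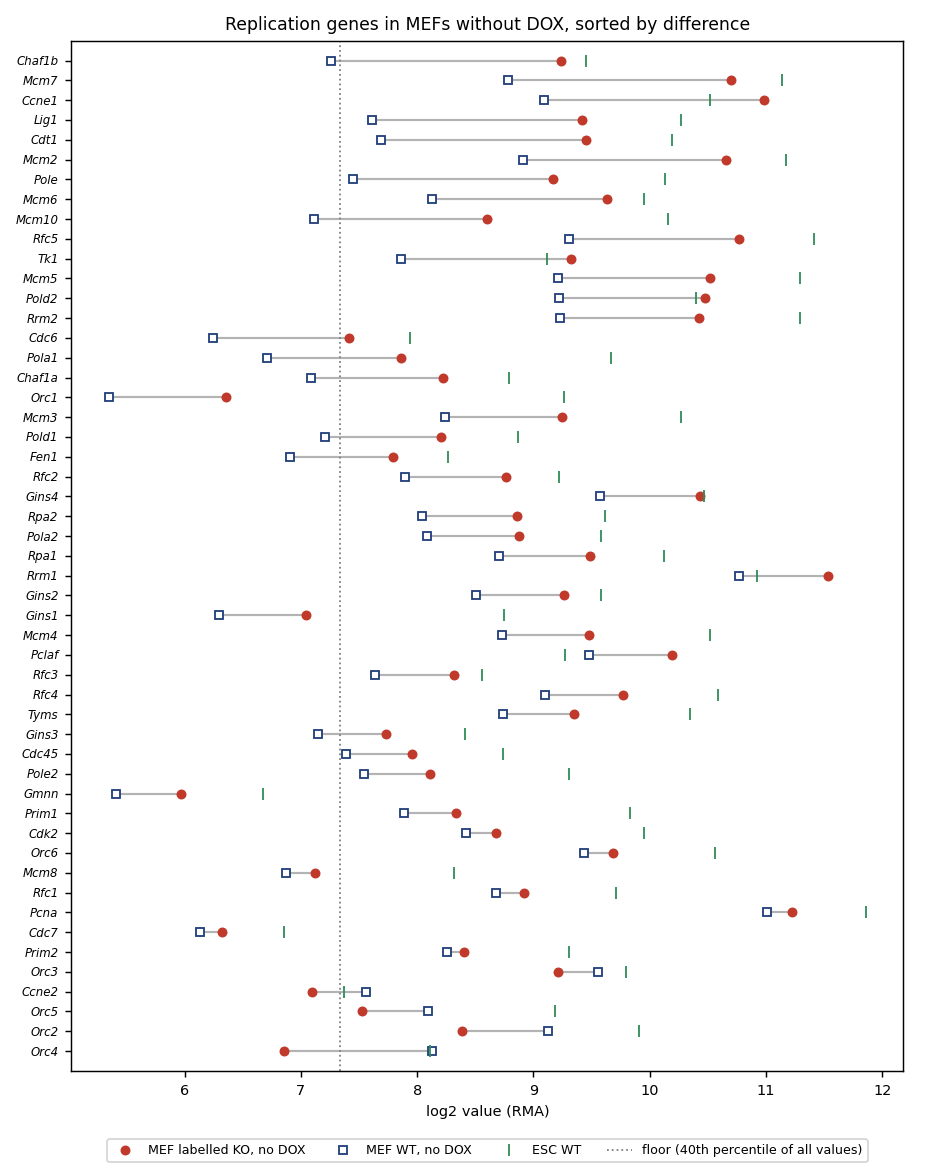
Log2 values of the 51 genes in MEFs without DOX labelled KO (red circles) and WT (blue squares), with WT ESCs as green ticks and the floor of 7.34 dotted, sorted by the KO minus WT difference. From Chaf1b at 1.98 to Prim2 at 0.14 the red circle lies right of the square, and for Orc3, Ccne2, Orc5, Orc2 and Orc4 it lies left.

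The 17 members with E2F-type letters had a median difference of 1.01 in this comparison (range -0.34 to 1.92), the 25 without them 0.78 (-1.27 to 1.98) and the 9 with no window 0.75. Of the genes printed above, Mcm6 and Mcm5 were past 2-fold, and Gins3 and Cdk2 differed by 0.59 and 0.26. The ranges overlapped almost wholly. Among the largest differences, Mcm7, Lig1 and Cdt1 had a window with the letters, and Chaf1b, Mcm2 and Ccne1 a window without them. In WT ESCs against WT MEFs without DOX the medians were 1.76 with the letters and 1.42 without.

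The genotype as labelled was not the only thing that differed between these 2 cultures. Of 16 measured macrophage markers, 4 lay above the floor in the library labelled KO and 15 in WT MEFs without DOX, 14 were at least 2-fold lower in the library labelled KO, and the log2 of their summed level was 11.46 against 14.07. The macrophage gene Adgre1 read 5.21 against 9.91. The fibroblast markers had a median difference of -0.52, with 1 of 12 at least 2-fold lower, and log2 summed levels of 14.68 against 15.27. Of 12 measured epithelial markers, 4 were at least 2-fold higher, with log2 summed levels of 12.00 against 9.85. Of 13 pluripotency markers, 12 had positive differences and 3 were at least 2-fold higher, Pou5f1 (11.26 against 8.19) and Nanog (7.82 against 5.43) among them, and the log2 summed levels were 11.81 against 10.05. The part of each cell type in the member differences was not tested.

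DOX in WT MEFs went with nearly level replication genes. The median log2 difference between WT MEFs with and without DOX was -0.02, with 23 members above 0 and 28 below, and 0 of 51 were 2-fold higher or lower. Over 9524 genes, 11.9% were 2-fold higher and 13.7% lower. Of the members, 45 of 51 (88.2%) lay within 0.5 of no difference, against 54.9% of genes, and the median size was 0.23 against 0.43. The member values cover all 51, of which 39 were above the floor on either array, and the gene values only genes above it. The extremes were Pold2, at 9.98 with DOX and 9.22 without (0.76), and Prim1, at 7.28 and 7.89 (-0.61).

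Beyond Pold2, the upper end held Mcm6 (8.83 with DOX, 8.12 without), Cdt1 (8.34, 7.69) and Pole (8.10, 7.45). The lower end held Orc2 (8.57 with DOX, 9.12 without) and Tyms (8.27, 8.74). By role the medians ran from -0.25 for the ORC to 0.17 for the chromatin assembly genes, with Mcm8, under the floor on both arrays, at 0.23. The same 2 arrays were far apart in markers of cell type: 9 of 12 fibroblast markers and 14 of the 15 macrophage markers above the floor were at least 2-fold lower with DOX, and 12 of 12 epithelial markers were higher. Myc, itself one of the induced factors, read 12.21 with DOX and 10.99 without.

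**Figure D3:**
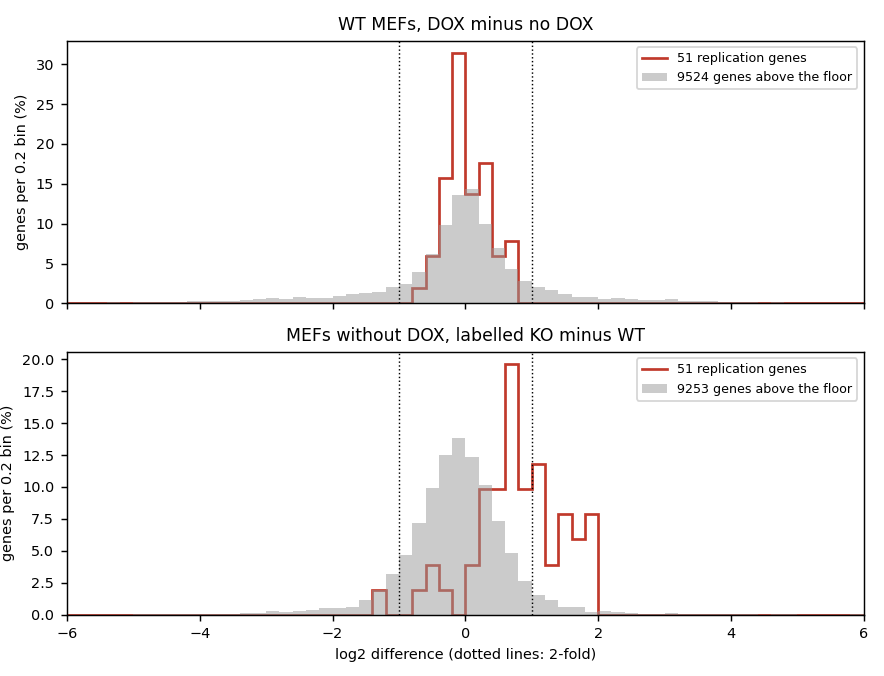
Share of genes (%) per 0.2-wide bin of log2 difference, for the 51 members (red line) and for genes above the floor in that comparison (grey), in WT MEFs with minus without DOX (top) and in MEFs without DOX, labelled KO minus WT (bottom). In the top panel the members fall within -0.61 to 0.76, and in the bottom panel most of them lie right of 0.

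Between the libraries labelled KO with and without DOX the median was -0.31, against 0.13 for all genes, with 40 of 51 members lower in the library labelled with DOX. At 2-fold, 0 were higher and 5 were lower, against 6.81% and 2.93% of 9119 genes. The 5 were Ccne1 (9.76 in the library labelled with DOX, 10.99 in the one without), Mcm7 (9.49, 10.70), Cdt1 (8.30, 9.45), Rfc5 (9.69, 10.77) and Mcm2 (9.61, 10.65). Ccne2 ran the other way, at 7.95 against 7.10, and so did Orc4, at 7.66 against 6.86. In the library labelled with DOX all 12 epithelial markers were lower (5 of the 5 above the floor by 2-fold or more), as were 11 of 13 pluripotency markers (3 by 2-fold or more), while 5 of 16 macrophage and 2 of 12 fibroblast markers were at least 2-fold higher and 1 macrophage marker lower. The log2 summed levels with and without DOX as labelled were 9.59 and 12.00 for epithelial, 9.56 and 11.81 for pluripotency, 12.08 and 11.46 for macrophage and 15.25 and 14.68 for fibroblast markers, and their part in the member differences was not tested.

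Between the genotypes with DOX as labelled, 46 of 51 members were higher in the library labelled KO than in WT. The median difference was 0.47, against -0.0008 over all genes above the floor. Without regard to sign, the median size was 0.47 for the members and 0.47 for all genes. Within 0.5 of no difference lay 29 of 51 members (56.9%) and 52.0% of genes. Gins2, a GINS subunit (9.43 in the library labelled KO, 8.15 in WT), and Tyms (9.28, 8.27) were the 2 members 2-fold higher, and 0 were lower. The shares of 9572 genes were 14.3% higher and 12.1% lower. Cdc7, under the floor on both arrays, had the lowest difference (-0.46). Fibroblast markers were 2-fold higher in the library labelled KO for 9 of 12 and lower for 1, and epithelial markers were lower for 12 of 12. Of 16 macrophage markers 4 were 2-fold higher, and of 13 pluripotency markers 1 was higher and 4 were lower. The part of these markers' cells in the member differences was not tested.

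Since the DOX labels of the KO libraries were in doubt, both were also set against both WT MEF libraries, a comparison chosen after the values were seen. Of 51 members, 40 had both values labelled KO above both WT values, 1 (Orc4) had both below and 10 overlapped. Of the 46 members with a value above the floor on any of the 4 arrays, 37 were above and 1 below. Of 10039 genes 17.0% were above and 19.7% below. The rise in the library labelled KO without DOX, known when the list was drawn up, enters this comparison too. The lowest KO value exceeded the highest WT value by a median of 0.36 over the 51 members, and the same gap was -0.45 over all genes. With the DOX labels of the KO libraries exchanged, the library labelled KO with DOX had a median difference of 0.48 against WT without DOX, with 2 of 51 members 2-fold higher and 0 lower, where 1.88% and 2.63% of genes were. The library labelled KO without DOX then had a median of 0.88 against WT with DOX, with 20 members 2-fold higher and 1 lower, where 10.6% and 13.7% of genes were. The count of 18 members higher in MEFs without DOX rests on the DOX label of 1 library.

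Chaf1b had 8.28 and 9.24 in the libraries labelled KO with and without DOX. In the WT libraries with and without DOX it had 7.36 and 7.26, the latter under the floor. Mcm2 had 9.61 and 10.65 in the libraries labelled KO, and 8.95 and 8.91 in the WT libraries, in the same order. Ccne1 had 9.76 and 10.99, against 9.03 and 9.09 in WT. In these 3 genes the WT values lay within 0.10 of each other and the libraries labelled KO were apart by 0.95 or more. The members whose ranges overlapped included Pcna, Rrm1, Cdt1, Pold2, Orc2, Orc3, Orc5 and Ccne2, with Gmnn and Cdc7 under the floor.

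**Figure D4:**
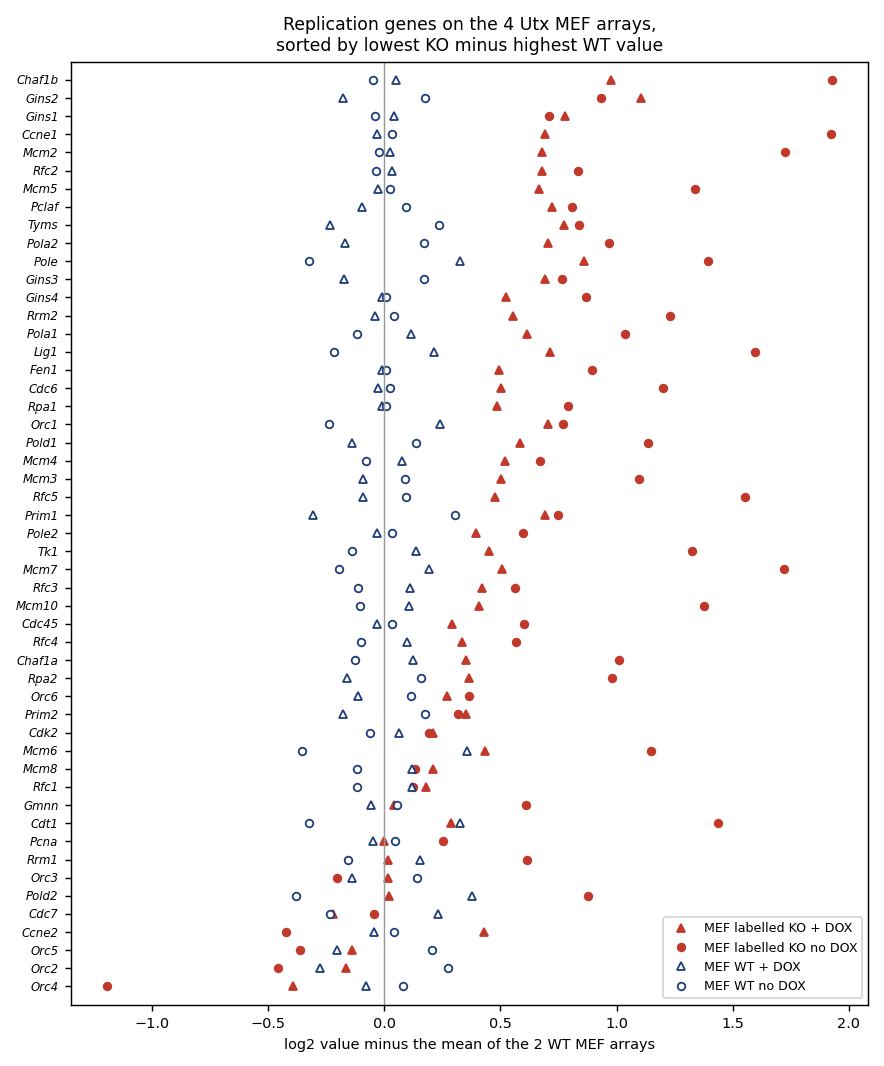
Log2 values of the 51 genes on the 4 Utx MEF arrays minus the mean of the 2 WT MEF arrays, red for libraries labelled KO and open blue for WT, triangles with DOX and circles without. For 40 of 51 genes both red symbols lie right of both blue ones, and for Orc4 both lie left.

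In ESCs the genotypes were close. The members' median difference was 0.15 for KO minus WT, against 0.06 for the 8598 genes above the floor on either array, and 40 of 51 were above 0. None reached 2-fold in either direction (0 higher, 0 lower), and the shares of genes were 0.651% and 3.18%. Within 0.5 of no difference lay 49 of 51 members (96.1%) and 88.0% of genes. Pclaf, at 9.96 in KO and 9.27 in WT ESCs, and Cdc7, at 7.45 and 6.86, were the 2 members beyond 0.5, and Mcm10, at 9.92 and 10.16, had the lowest difference. Fibroblast markers were lower in KO ESCs, 7 of the 8 above the floor by 2-fold or more, and their part was not tested.

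Set against the library labelled KO without DOX, KO ESCs had a median member difference of 0.83, against 0.14 for all genes, with 47 of 51 above 0. At 2-fold, 19 of 51 were higher and 0 lower, against 18.7% and 17.1% of 9563 genes. The ORC had a median of 1.57, the helicase 0.73 and nucleotide supply 0.29. Orc1 had the widest gap, with 9.28 in KO ESCs and 6.36 in the library labelled KO, and Rrm1 the lowest, with 10.97 and 11.53. All 12 fibroblast markers were at least 2-fold lower in KO ESCs and all 13 pluripotency markers higher, and their part was not tested. Against the library labelled KO with DOX the members' median was 1.33.

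Fibroblasts from Nanog -/- ESCs carrying OSKM for 8 days were set against both WT MEF arrays, and both comparisons take the one Nanog KO array. Against WT with DOX the members' median was 0.60, below the median of 0.76 over 10833 genes, and 14 of 51 were 2-fold higher and 0 lower, where 37.2% and 5.53% of genes were. Against WT without DOX the median was 0.55, the all-gene median 0.73, and 12 of 51 were 2-fold higher and 1 (Pclaf) lower, where 35.1% and 3.72% of genes were. With array medians aligned the members' medians were -0.14 and -0.19, so the sign of the whole list depends on the scaling of this array. In each comparison 1 member was then 2-fold higher and 4 lower. Shares of all genes were not computed with medians aligned, and those given above do not apply to these counts.

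Within the Nanog KO array the members were uneven. Pold2 read 11.39, against 9.98 in WT MEFs with DOX and 9.22 without, and Pold1 read 8.78, against 6.93 and 7.21. Gins1 read 5.42, against 6.38 and 6.29, all under the floor, and Pclaf 8.41, against 9.29 and 9.48. Mcm5 was the helicase subunit with the lowest difference (8.59, against 9.16 and 9.21) and Mcm6 the one with the highest (9.75, against 8.83 and 8.12). As deposited, all 8 polymerase and primase genes were above both WT MEF arrays, 6 of them by 2-fold or more against WT with DOX. With array medians aligned, 6 of the 8 were above WT with DOX and 4 above WT without DOX, and 1 was 2-fold higher in each. The aligned medians against WT with and without DOX were 0.36 and 0.13 for this role and 0.11 and 0.35 for the clamp and its loader. They were -0.33 and -0.26 for the helicase, -0.52 and -0.57 for helicase activation and -0.50 and -0.60 for nucleotide supply. Markers differed here too. Against WT with DOX, 10 of 12 fibroblast and 11 of 16 macrophage markers were at least 2-fold higher on the Nanog KO array, and 1 fibroblast and 12 of 12 epithelial markers lower. Against WT without DOX, 4 of 12 fibroblast markers were at least 2-fold higher and 2 lower, 6 of 16 macrophage markers were lower and 5 of 12 epithelial markers higher. The part of these markers' cells was not tested.

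**Figure D5:**
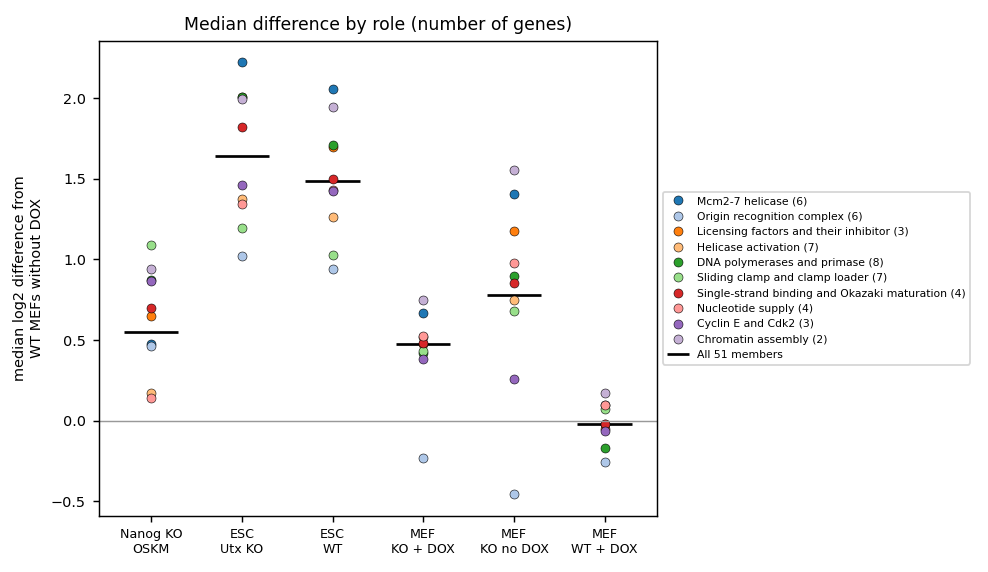
Median log2 difference of each role's members (dots, number of genes in the legend) and of all 51 (black bars) on 6 arrays from WT MEFs without DOX. The Nanog KO column is as deposited, without alignment of array medians. The helicase and chromatin assembly genes lead in the library labelled KO without DOX (1.41 and 1.56), the ORC is below 0 in both libraries labelled KO (-0.23 with DOX and -0.46 without), and the roles drawn (without Mcm8) lie between -0.25 and 0.17 in WT MEFs with DOX.

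Other genes of the same pathways were read from lists that do not overlap the members. Between the libraries labelled KO and WT without DOX, 5.04% of 9253 genes above the floor were 2-fold higher and 9.53% lower. The list counts of this comparison stand beside these shares. Of 30 further replication and fork genes 29 were measured, 9 were 2-fold higher and 0 lower, and the median was 0.46. They were led by Ticrr, which helps to fire origins (8.66 in the library labelled KO, 6.97 in WT), Rnaseh2a, a subunit of a ribonuclease that removes RNA from DNA (10.81, 9.36), and Uhrf1, which brings the maintenance methyltransferase to new DNA (9.41, 8.02). Of 23 measured nucleotide synthesis genes, 3 were 2-fold higher (Shmt1 by 1.25, Dctpp1 by 1.06 and Umps by 1.01) and 0 lower, with a median of 0.29. The 15 measured mitosis genes had a median of 0.92, all 15 were above 0 and 6 were 2-fold higher, among them Bub1b (9.42, 7.52), Aurkb (10.51, 8.85) and Foxm1 (9.34, 8.02).

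The E2F and pocket protein genes themselves had differences of both signs, 14 above 0 and 5 below, with a median of 0.27 over 19. Mybl2, an E2F target that drives later cell cycle genes, was 2-fold higher (8.40 in the library labelled KO, 7.05 in WT) and E2f5, a repressor of the family, lower (6.73, 7.82). Of 13 measured G1 cyclin and CDK inhibitor genes, Cdkn2a was higher (8.31, 7.01) and Cdkn2b lower (8.42, 9.76). In WT MEFs with against without DOX the list medians were -0.03 for replication and fork genes, -0.07 for nucleotide synthesis, 0.04 for E2F and pocket protein genes, -0.13 for G1 genes and 0.03 for mitosis genes. In that comparison Usp1 (1.41) and Dbf4 (1.09), the activator of Cdc7, were 2-fold higher and Pole4 (-1.60) lower among fork genes. Of 15 mitosis genes 0 passed 2-fold, and over all genes above the floor 11.9% were higher and 13.7% lower.

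In WT ESCs against WT MEFs without DOX, 19 of 29 measured fork genes and 13 of 15 mitosis genes were 2-fold higher. In either list 0 were lower. The shares of 9673 genes were 14.5% higher and 19.8% lower. Nucleotide synthesis genes had 7 of 23 higher and 0 lower, with a median of 0.21, against 1.43 for the 4 nucleotide supply members. On the Nanog KO array against WT MEFs with DOX the mitosis genes had a median of -0.73. Of these, 4 of 15 were at least 2-fold lower, among them Cdc20 (8.19, against 9.74) and Plk1 (8.45, against 9.75), and 0 were higher. Of 10833 genes 5.53% were lower and 37.2% higher. The mitosis values are as deposited, depend on the scaling of this array too and were not recomputed with array medians aligned. The members' median was 0.60, below the median of 0.76 over all genes above the floor. The sign of the members' median depends on the scaling of this array, as described above.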

How the data were processed

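The authors deposited log2 values of 7 arrays, for which the submitters' processing notes name RMA and Affymetrix Expression Console. RMA subtracts background, brings arrays to one scale and combines the probes of a row. Software versions and build were not given in the sources used here, nor whether the Nanog KO array was normalized with the others. The labels name a labelling kit for 3-prime arrays. The table had 21811 rows, 0 missing values and 0 unmapped value columns.

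Of the rows, 14894 had 1 gene symbol, 925 several (left out) and 5992 were not listed. The row with the highest mean stood for a gene. IDs of all 51 members were in the RefSeq table of GRCm38.p6. The members and lists were chosen with earlier results of these data known. Log2 differences were taken between arrays for 9 comparisons. A gene counted at 2-fold where the higher value exceeded the floor, the 40th percentile of all values (7.34). Unless stated otherwise, member counts and medians are over all 51, those under the floor included. Shares and medians of all genes are over genes above the floor in that comparison. All members could be named, with up to 3 genes per direction of each other list by size and Kdm6a, Pou5f1, Nanog and Myc. Nanog read 6.56 on the Nanog KO array, under the floor as in every Utx MEF library except the one labelled KO without DOX (7.82). No test was run, since each condition has 1 array. Alternatives covered array scaling, the floor, a 1.5-fold threshold and the row of a gene, and the exchange of the DOX labels of the libraries labelled KO. Counting and scaling code was tested on simulated data. Promoters came from RefSeq. Protein sequences were not used here. The tools were Python 3.11.15, pandas 2.3.3, numpy 2.4.6, matplotlib 3.10.9 and scipy 1.17.1.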

Additional observations from a re-analysis of the deposited data

Results flagged for a closer look

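In 4 members the difference between DOX and no DOX, as labelled, was at least 0.5 on the log2 scale in both genotypes of MEFs and had opposite signs. Cdt1, the licensing factor, differed by -1.15 between the libraries labelled KO and by 0.65 between the WT libraries. Pold2, the accessory subunit of polymerase delta, differed by -0.86 and 0.76, the helicase gene Mcm6 by -0.72 and 0.71, and Pole, the catalytic subunit of polymerase epsilon, by -0.54 and 0.65, in the same order. Each is a difference of 2 arrays, and whether the genotypes differ was not tested. The opposite signs rest on the DOX labels of the libraries labelled KO, which Pou5f1 went against. With those labels exchanged the differences between the libraries labelled KO were 1.15 for Cdt1, 0.86 for Pold2, 0.72 for Mcm6 and 0.54 for Pole. The exchange only turns the sign of each difference. Because these genes were picked for opposite signs, the same sign as in WT was then fixed in advance. It says nothing about the labels.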

How the results depend on the processing

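Between the library labelled KO and WT without DOX the members' median ran from 0.78 to 0.92 over the scalings, floors and row choices, and 15 to 21 members were 2-fold higher. At 1.5-fold 33 were higher and 2 lower, and with the floor at the 60th percentile (8.48) 0 were lower at 2-fold. WT MEFs with against without DOX had 4 higher and 1 lower at 1.5-fold, and the libraries labelled KO with against without DOX had 2 higher and 18 lower at 1.5-fold and 8 lower at 2-fold under quantile normalization. Both values labelled KO lay above both WT values for 26 to 40 members. Shares of all genes were not recomputed under the changed scalings, floors, rows or threshold. Member counts under these settings therefore stand without a background. KO ESCs against the library labelled KO without DOX had a median of 0.67 with array medians aligned and 0.67 after quantile normalization. The Nanog KO medians reversed: against WT with and without DOX they were -0.14 and -0.19 with medians aligned, and -0.13 and -0.18 after quantile normalization, with 1 member 2-fold higher and 4 lower in each case. With the higher floor they were 0.80 and 0.79. The cause was not tested. With the DOX labels of the libraries labelled KO exchanged, a comparison chosen after seeing the data, the library then labelled KO without DOX had a median of 0.48 against WT, with 2 members 2-fold higher and 0 lower. With against without DOX the median reversed to 0.31, with 5 higher and 0 lower, the genotypes with DOX had a median of 0.88, and KO ESCs against the MEFs without DOX had 1.33. Of the list medians recomputed, 46 moved little, 7 moved more and 5 reversed. No paired analysis was possible because each condition has 1 array. Values under the floor on at least 4 of the 7 arrays limit Gmnn, Cdc7, Orc1, Gins1, Cdc6 and Mcm8.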
